A study of Mus musculus with 24 samples.

Results

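The genes described here are 10 members of the disease-associated microglia programme: Trem2, Tyrobp, Apoe, Lpl, Spp1, Gpnmb, Itgax, Cst7, Clec7a and Cd9. They were taken by name, and all 10 were found by Ensembl identifier among the 45706 genes of the count table. RNA was sequenced from macrophages of female C57BL/6J mice, 8 to 12 weeks old by the labels, with 3 libraries in each of 8 groups. The first 4 groups were sorted cells (ex vivo): microglia of the brain (MG, CD45low CD11b+), Kupffer cells of the liver (KCs, also F4/80+ and TIM-4+), peritoneal macrophages (PMs, CD115+ F4/80high) and alveolar macrophages of the lung (AMs, SiglecF+). The other 4 groups were cells grown for 14 days in vitro from suspensions of the same organs, named MG-, KC-, PM- and AM-like cells (MG-, KC-, PM- and AM-LCs, together TRM-LCs). The suspensions were unsorted, in flasks coated with polyethylenimine, and which cells the cultures grew from is not fixed by the design. A flask pooled 3 brains, 1 liver, 3 peritoneal cavities or 3 lungs. MG-LCs received M-CSF and IL-34, KC- and PM-LCs M-CSF alone, each at 3% oxygen with high glucose. AM-LCs received GM-CSF, atmospheric oxygen and no glucose. IL-34 went to MG-LCs alone. In AM- and MG-LCs the effect of the tissue and that of the medium thus cannot be told apart. The comparisons ask whether culture raises these genes in MG alone or in macrophages of every organ, and which sorted population already carries them.

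Microglia that lie near amyloid plaques, in demyelinated tissue or in the aged brain lower their resting genes, such as P2ry12 and Tmem119, and raise a shared set of genes for lipid uptake, lysosomal work and adhesion. Trem2, a surface receptor for lipids and lipoproteins, signals through the ITAM of its adaptor Tyrobp (DAP12), and full induction of the programme in mice needs Trem2. Its best known output genes are the lipoprotein Apoe, the lipase Lpl, the secreted phosphoprotein Spp1 (osteopontin), the endolysosomal glycoprotein Gpnmb, the integrin chain Itgax (CD11c), the cathepsin inhibitor Cst7 (cystatin F), the beta-glucan receptor Clec7a (dectin-1) and the tetraspanin Cd9. Several of them are also textbook genes of healthy macrophages outside the brain, CD11c in the lung for one.

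The libraries held 29569486 to 47105111 reads on genes, and a gene with no read in a library was below 0.0661 to 0.114 CPM (3 reads, counting error only). Levels are given as CPM, the read count of a gene scaled to the size of its library with TMM factors over all 24 libraries, in the order of replicates 1, 2 and 3. Each sorted group held its own markers, 6 genes a list, which summed to 22476 to 23411 CPM in MG, 14589 to 26713 CPM in KCs, 8468 to 8687 CPM in PMs and 22339.5 to 25217 CPM in AMs. The same lists were lower in the matching cultures, at 301, 1004 and 2556 CPM in MG-LCs, at most 94.1 CPM in KC-LCs, 146 to 324 CPM in PM-LCs and 2804 to 10303 CPM in AM-LCs. Some libraries stood apart from their group. MG-LC replicate 1 held 30979 CPM of 8 fibroblast and mesothelium genes against 7.39 and 1012 CPM in replicates 2 and 3, and 2822 CPM of 8 macrophage genes against 8578 and 9679 CPM. KC replicate 1 held 755 CPM of 7 dendritic cell genes against 107 and 122 CPM. The fibroblast and mesothelium sum was also highest in PM-LC replicate 2, at 2209 CPM, and in AM-LC replicate 3, at 1668 CPM. KC-LC replicate 1 was low in Apoe and Clec7a, given with those genes. In bulk RNA, fewer cells of a type and less RNA per cell cannot be told apart.

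Promoters are shown for Gpnmb and Spp1, which rose in every tissue, and for Trem2 and Itgax, whose culture effect differed between tissues. RefSeq windows of 300 bases (250 before and 50 from the transcript start, build GRCm38.p6) were found for 8 of the 10 members. Letters for 5 motifs were searched on both strands, and capitals mark a match.
Gpnmb: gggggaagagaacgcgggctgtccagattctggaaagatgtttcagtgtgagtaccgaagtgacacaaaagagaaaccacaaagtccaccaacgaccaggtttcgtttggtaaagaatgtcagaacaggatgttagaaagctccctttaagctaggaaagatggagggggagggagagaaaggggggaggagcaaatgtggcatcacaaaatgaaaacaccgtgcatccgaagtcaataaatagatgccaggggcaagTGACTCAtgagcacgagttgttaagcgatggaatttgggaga
Spp1: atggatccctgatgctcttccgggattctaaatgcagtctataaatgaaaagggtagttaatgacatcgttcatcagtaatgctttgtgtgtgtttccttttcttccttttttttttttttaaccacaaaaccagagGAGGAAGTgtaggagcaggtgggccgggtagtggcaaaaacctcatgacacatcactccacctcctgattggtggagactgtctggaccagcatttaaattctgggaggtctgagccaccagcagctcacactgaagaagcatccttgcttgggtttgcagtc
Trem2: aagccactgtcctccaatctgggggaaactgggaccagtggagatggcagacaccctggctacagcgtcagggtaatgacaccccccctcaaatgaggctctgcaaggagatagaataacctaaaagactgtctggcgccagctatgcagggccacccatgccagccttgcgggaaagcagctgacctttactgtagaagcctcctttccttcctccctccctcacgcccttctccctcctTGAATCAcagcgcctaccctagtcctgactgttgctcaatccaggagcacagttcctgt
Itgax: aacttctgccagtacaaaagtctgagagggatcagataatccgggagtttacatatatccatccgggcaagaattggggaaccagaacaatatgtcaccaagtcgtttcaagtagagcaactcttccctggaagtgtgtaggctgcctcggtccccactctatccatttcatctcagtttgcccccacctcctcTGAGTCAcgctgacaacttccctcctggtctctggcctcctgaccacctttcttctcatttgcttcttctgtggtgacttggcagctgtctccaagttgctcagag
The windows lie at chr6:49036268-49036567, plus strand, chr5:104434861-104435160, plus strand, chr17:48346151-48346450, plus strand and chr7:128129300-128129599, plus strand. The AP-1 letters TGANTCA were present once each in Gpnmb, Trem2, Itgax and Cst7, starting at +8, -9, -56 and -6 from the transcript start, and in 7.81% of all 32851 windows. The PU.1 letters GAGGAAGT occurred in Spp1, at -113, and in 3.20% of windows. The E-box CACGTG (7.15% of windows), the M-box TCATGTG (3.77%) and the STAT letters TTCNNNGAA (8.30%) were in no member's window, which says only that these letters are not there. A match is a description of the sequence and not a bound site.

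Part of the programme was higher in vitro in every tissue. By edgeR's quasi-likelihood test, with p adjusted over all genes tested and called under 0.05, 6 of the 10 members were higher in MG-LCs than in MG and 0 were lower. In KC-LCs 6 were higher and 0 lower than in KCs. PM-LCs had 7 higher and 1 lower, and AM-LCs 8 higher and 0 lower. These counts do not rank the tissues, since that of MG was 9 without MG-LC replicate 1 and 3 without any 1 of the sorted MG libraries. Culture changed many genes, and of all genes tested 25.2% were higher and 21.2% lower in MG-LCs, 14.4% and 19.4% in KC-LCs, 16.8% and 12.1% in PM-LCs, and 25.9% and 22.9% in AM-LCs. Over the 10 members, the median log2 fold change (in vitro minus ex vivo) was 3.99, 1.95, 3.24 and 1.27 for MG, KCs, PMs and AMs, against medians of 0.031, -0.0095, 0.013 and 0.037 over all genes tested. Values after ± beside a log2 fold change are standard errors of the fit. Lpl, Spp1 and Gpnmb were higher in all 4 tissues, 3 of 10 members next to 3.87% of the 11777 genes tested in all 4. Spp1 was called in all 4 tissues under every alternative run and with any 1 library left out. So was Gpnmb, but in MG it passed the filter on low counts only through its cultured libraries. Its MG call, and with it its place among the 3, is thus no support. Lpl lost its call in AMs or MG in 7 of the 24 fits that each left out 1 library, in the fit with the replicate number as a block and in the model of all 24 libraries. All 10 members passed the filter on low counts in every tissue. Gpnmb in MG, Itgax in PMs and Cst7 in KCs and AMs passed only through their cultured libraries, and Cst7 in PMs only through the sorted ones, so that their culture effects are given without a p. Among the members that reached the minimum in all 3 libraries of both sides, 5 of 9 were higher in MG, 6 of 9 in KCs, 6 of 8 in PMs and 7 of 9 in AMs.

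**Figure D1:**
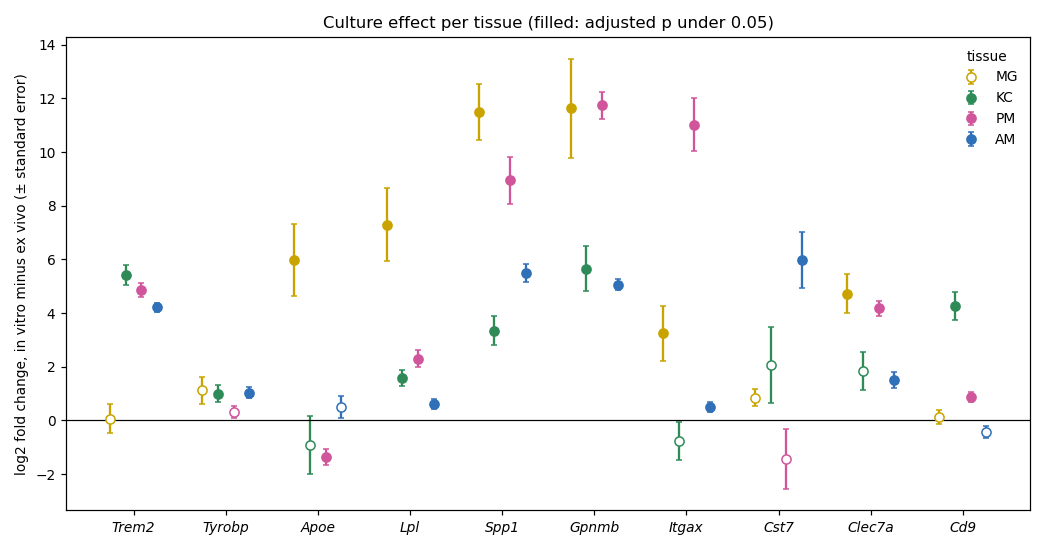
Log2 fold change in vitro minus ex vivo for each of the 10 members (x axis) in MG, KCs, PMs and AMs, with standard errors from edgeR over 3 libraries per group. Filled points had an adjusted p under 0.05, among them Gpnmb in MG, Itgax in PMs and Cst7 in AMs, which passed the filter on low counts only through cultured libraries. Gpnmb reached 11.63 in MG and 11.75 in PMs, Trem2 lay at 0.062 in MG and between 4.22 and 5.42 elsewhere, and Apoe in PMs was the 1 effect called lower.

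The rise in MG was tested directly against the rise elsewhere, as the difference between the culture effect in one tissue and the mean effect of the other 3. Here 5 members rose more in MG (Apoe, Lpl, Spp1, Gpnmb and Clec7a) and 2 less (Trem2 and Cd9), against 12.3% and 7.55% of all genes tested. In KCs 2 were above and 3 below the other tissues (background 5.06% and 10.4%), in PMs 4 and 0 (6.28% and 6.96%), and in AMs 1 and 5 (7.68% and 9.45%). These 4 contrasts use the same 24 libraries and are not independent of each other. MG- and AM-LCs each had a medium of their own, so a difference between tissues cannot be told apart there from a difference between media.

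Each sorted population carried a different portion of the set, and AMs had the most members above the others. Compared with the mean log2 level of the other 3 sorted populations, 6 members were higher and 3 lower in AMs (24.7% and 21.9% of all genes tested), with a median difference of 3.42 over the members and -0.085 over all genes. AMs were above the others in Lpl, Spp1, Gpnmb, Itgax, Clec7a and Cd9. KCs had 5 higher and 2 lower (background 24.1% and 12.4%), and PMs 3 higher and 4 lower (20.8% and 15.1%). Sorted MG had 2 higher, Trem2 and Cst7, and 7 lower (26.2% and 25.2%), with a median difference of -3.20. Of these 7 calls that of Itgax was lost in 7 of the 12 fits without 1 library, and in the fit without PM replicate 2 its adjusted p was 0.736. The 10 members took 0.329 to 0.356% of the reads on genes in MG, 1.25 to 1.53% in AMs, 2.37 to 2.70% in KCs and 5.11 to 5.53% in PMs. In sorted PMs and KCs most of this was 1 gene, Apoe. It gave 48241 to 53433 of 53564 to 57855 CPM in PMs, and 15986 to 19630 of 19029 to 23906 CPM in KCs. The share was 3.15 to 6.97% in MG-LCs, 2.74 to 4.68% in KC-LCs, 4.63 to 6.49% in PM-LCs and 5.93 to 7.43% in AM-LCs.

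**Figure D2:**
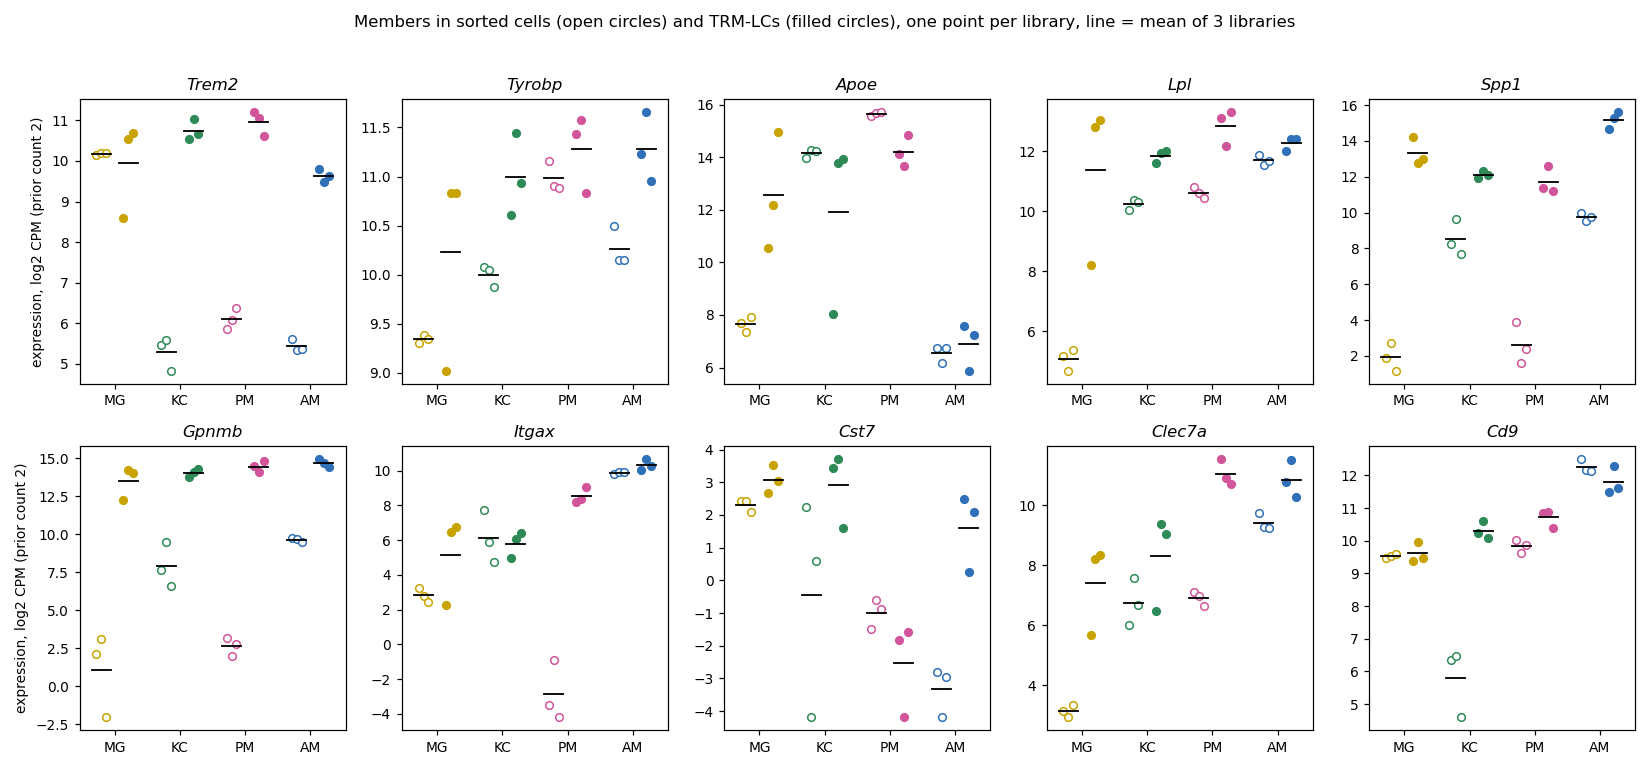
Expression of each member as log2 CPM (y axis, a scale of its own in each panel) by tissue (x axis), with open circles for sorted cells, filled circles for TRM-LCs, 1 point per library and a line at the mean of 3. Sorted and cultured libraries overlapped for Apoe in AMs, and Gpnmb rose in every tissue from levels that differed by 184-fold between sorted populations to levels within 1.99-fold of each other.

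Trem2 rose in every tissue but MG, and its adaptor Tyrobp in KCs and AMs. Trem2 (chr17:48346401-48354147, plus strand, GRCm38) was already high in sorted MG, at 1138, 1178 and 1171 CPM, and stood at 389, 1497 and 1654 CPM in MG-LCs. The low value is MG-LC replicate 1, and the other libraries of both groups lay between 1138 and 1654 CPM. Outside the brain sorted cells held little of it, with 43.8, 47.5 and 28.2 CPM in KCs, 57.7, 67.6 and 83.0 CPM in PMs and 48.7, 40.0 and 41.0 CPM in AMs. After culture the same tissues gave 1484, 2106 and 1637 CPM, 2356, 2127 and 1564 CPM and 898, 711 and 788 CPM. No cultured library overlapped a sorted one in these 3 tissues, and KC- and PM-LCs exceeded sorted MG. Culture raised Trem2 by 5.42 ± 0.36 (adjusted p = 1.82e-04) on the log2 scale in KCs, 4.86 ± 0.26 (adjusted p = 4.17e-05) in PMs and 4.22 ± 0.16 (adjusted p = 3.17e-05) in AMs. In MG the effect was 0.062 ± 0.54 (adjusted p = 0.93). It differed from the other tissues by a log2 difference of -4.82 ± 0.44 (adjusted p = 2.27e-07). Without MG-LC replicate 1, Trem2 was 0.49 higher in MG-LCs and passed (adjusted p = 0.0262), with a range of 0.0262 to 0.98 over the alternatives of this effect.

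Tyrobp (chr7:30413760-30417585, plus strand), the adaptor through which Trem2 and other receptors signal, was high in all 24 libraries and varied least of the members. Sorted MG held the least, at 634, 671 and 650.1 CPM, and sorted PMs the most, at 2288, 1919.7 and 1882 CPM, with KCs at 937 to 1082 CPM and AMs at 1133 to 1443 CPM. These 4 ranges did not overlap. MG-LCs gave 519.8, 1821 and 1819 CPM, again with replicate 1 low. The log2 fold change in vitro was 1.04 ± 0.19 (adjusted p = 0.00429) in AMs and 1.00 ± 0.31 (adjusted p = 0.0402) in KCs. In MG it was 1.13 ± 0.50 (adjusted p = 0.109), and without MG-LC replicate 1 it was 1.53 with an adjusted p of 5.1e-04. The KC call was lost, with adjusted p of 0.0797 to 0.131, in each of the fits without KC replicate 2 or 3 or KC-LC replicate 2 or 3. PM-LCs, at 1818 to 3050.2 CPM, overlapped PMs, and the difference in effect of each tissue from the others did not pass for Tyrobp in any tissue.

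The lipid genes went in different directions. Apoe (chr7:19696109-19699188, minus strand), the lipoprotein that carries lipid between cells of the brain, was among the most abundant transcripts of sorted PMs, at 48241, 52572 and 53433 CPM, and of sorted KCs, at 15986, 19630.3 and 19499 CPM. Sorted MG held 206, 165 and 240.1 CPM and sorted AMs 107, 72.8 and 108 CPM. The levels in PMs and KCs were thus far above both, by a log2 difference from the other sorted cells of 6.20 ± 0.17 (adjusted p = 7.29e-10) in PMs and 4.22 ± 0.16 (adjusted p = 5.53e-09) in KCs. Apoe is also a hepatocyte transcript, and 8 hepatocyte genes summed to 248 to 358 CPM in KCs and 762 to 892 CPM in PMs. In KCs all 8 had reads in every library. In PMs 5, 4 and 6 of the 8 had no read in replicates 1, 2 and 3, and only Trf entered the culture test there. The part of hepatocyte RNA in the Apoe values was not tested. In MG-LCs Apoe rose to 1475, 4623 and 31723 CPM, a log2 fold change of 5.99 ± 1.35 (adjusted p = 0.0148), with every cultured library above every sorted one but a wide range between them. PM-LCs, at 17826, 12894 and 29356 CPM, lay below PMs in all libraries, and Apoe changed by -1.36 ± 0.31 (adjusted p = 0.0156) on the log2 scale. KC-LCs, all below the KC libraries, spread from 265 CPM in replicate 1 to 14106 and 15495 CPM in replicates 2 and 3, and the log2 fold change of -0.91 ± 1.07 (adjusted p = 0.544) did not pass, nor did it without replicate 1, at -0.31 (adjusted p = 0.522). AM-LCs held 193, 58.8 and 151 CPM, a log2 fold change of 0.50 ± 0.41 (adjusted p = 0.339). The MG effect was above that of the other tissues by 6.54 ± 1.25 (adjusted p = 7.92e-04). Both culture calls were lost in some of the fits without 1 library. The MG call gave adjusted p of 0.0806 to 0.0876 without any 1 of the sorted MG libraries, at log2 fold changes of 5.845 to 6.117. The PM call gave 0.0529 to 0.0588 without PM replicate 2 or 3 or PM-LC replicate 1, at -1.36 to -1.272. In the model of all 24 libraries the PM call was also lost (-1.36, adjusted p = 0.303).

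Lpl (chr8:68880491-68907448, plus strand), the lipase that frees fatty acids from lipoproteins, was lowest in sorted MG, at 36.3, 25.8 and 42.0 CPM, and highest in sorted AMs, at 3764, 2939 and 3241 CPM. KCs, at 1055 to 1320.0 CPM, and PMs, at 1398 to 1777 CPM, lay between them without overlap. In MG-LCs it reached 299, 7109 and 8444 CPM, all above sorted MG, with the fibroblast-rich replicate 1 the lowest. KC-LCs gave 3146, 3875 and 4140.4 CPM, PM-LCs 8723, 4584 and 10016 CPM and AM-LCs 4114, 5456 and 5385 CPM. In culture the ranges of neighbouring tissues overlapped, and the 4 cultured means lay within 2.09-fold of each other against 95.6-fold between the sorted means. The log2 fold change was 7.29 ± 1.36 (adjusted p = 0.00797) in MG, 1.58 ± 0.29 (adjusted p = 0.00632) in KCs, 2.30 ± 0.31 (adjusted p = 0.00186) in PMs and 0.60 ± 0.18 (adjusted p = 0.0278) in AMs. The MG effect exceeded that of the other tissues by 5.75, and the AM effect minus the mean of MG, KCs and PMs was -3.13. Without any 1 sorted MG library the MG call was lost at adjusted p of 0.0514 to 0.0539. The AM call was lost at 0.0533 to 0.109 without AM replicate 2 or 3 or AM-LC replicate 2 or 3. In the model of all 24 libraries its adjusted p was 0.499.

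Spp1 and Gpnmb rose in all 4 tissues. Spp1 (chr5:104435118-104441050, plus strand), a secreted ligand of integrins and CD44, was low in sorted MG, at 3.68, 6.41 and 2.20 CPM, and in sorted PMs, at 14.7, 2.97 and 5.21 CPM. Sorted AMs held 990.3, 744 and 851 CPM and KCs 300.2, 796 and 203 CPM, and the KC range reached into that of AMs. In vitro the levels were 19069, 7011 and 8179 CPM in MG-LCs, 3905, 5167 and 4379 CPM in KC-LCs and 2646, 6291 and 2316 CPM in PM-LCs. AM-LCs were above all others, at 25924, 39346 and 49504 CPM. In every tissue the lowest cultured library exceeded the highest sorted one. On the log2 scale it rose by 11.50 ± 1.05 (adjusted p = 0.0011) in MG, 8.95 ± 0.87 (adjusted p = 4.66e-04) in PMs, 5.50 ± 0.33 (adjusted p = 6.52e-05) in AMs and 3.35 ± 0.55 (adjusted p = 0.00425) in KCs. In MG-, PM- and AM-LCs, Spp1 was highest in the replicate whose fibroblast and mesothelium sum was highest, and the part of that RNA in it was not tested. Without MG-LC replicate 1 the fold change was 10.9 (adjusted p = 1.72e-04), without PM-LC replicate 2 it was 8.32 (adjusted p = 1.61e-04), and without AM-LC replicate 3 it was 5.23 (adjusted p = 8.21e-05). Over all alternatives and left-out libraries its adjusted p was at most 0.0214, 0.0213, 0.006 and 0.00135 in MG, KCs, PMs and AMs. An annotated transcript of unknown coding status, Gm42793, lies on the same strand over 1252 bases of Spp1, and reads there cannot be assigned to either with certainty.

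Gpnmb (chr6:49036546-49070929, plus strand), a transmembrane glycoprotein of endosomes and lysosomes that lipid-laden macrophages express, followed the same order ex vivo. Sorted MG held 4.39, 8.63 and 0.191 CPM, sorted PMs 9.09, 4.01 and 6.86 CPM, KCs 198, 719 and 98.2 CPM and AMs 880.4, 823 and 732 CPM. AMs exceeded every other sorted library, and the ranges of MG and PMs overlapped at the low end. After 14 days it stood at 4984, 18918 and 16817 CPM in MG-LCs, 13867, 17310.2 and 20586 CPM in KC-LCs, 22617, 17539 and 28739 CPM in PM-LCs and 32078, 27066 and 21747 CPM in AM-LCs. No sorted library reached a cultured one in any tissue. By mean CPM Gpnmb ranked 5 among all genes in MG-LCs, 5 in KC-LCs, 5 in PM-LCs and 6 in AM-LCs. It rose by 11.75 ± 0.51 (adjusted p = 2.63e-05) on the log2 scale in PMs. In MG the fitted value was 11.63, and from 11.06 to 12.56 with 1 library left out, against sorted libraries of which replicate 3 held 8 reads. In KCs the rise was 5.65 ± 0.83 (adjusted p = 0.00289), and in AMs 5.06 ± 0.20 (adjusted p = 3.17e-05). It exceeded the other tissues in MG by 4.10 and in PMs by 4.31, and the log2 differences in KCs and AMs were -3.79 and -4.62. The cultured means lay within 1.99-fold and the sorted means within 184-fold.

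Of the surface genes, Itgax differed most between tissues. Itgax (chr7:128129547-128150657, plus strand), the CD11c chain that pairs with Itgb2 and is used as a marker of dendritic cells and AMs, was at 875, 951 and 949.8 CPM in sorted AMs. Sorted PMs had 19 reads of it over the 3 libraries and 0 in replicate 3, which allows at most 0.0814 CPM there. MG stood at 9.43, 6.93 and 5.32 CPM and KCs at 213, 59.3 and 26.5 CPM, the high KC value being replicate 1, the library with the most dendritic cell genes. PM-LCs held 291, 335 and 521 CPM, all far above the sorted libraries, with a fitted log2 fold change of 11.02. It exceeded that of the other tissues by 10.03 ± 1.31 (adjusted p = 3.31e-05). The size of both values depends on the prior count added to so few reads. MG-LCs gave 4.75, 89.2 and 107 CPM, and replicate 1 was no higher than sorted MG. The MG fold change of 3.25 ± 1.02 (adjusted p = 0.0413) passed narrowly. It was lost without each of the sorted MG libraries and without MG-LC replicate 2 or 3 (adjusted p of 0.0897 to 0.14), with limma-voom (2.37, adjusted p = 0.231) and with no filter on low counts (adjusted p = 0.0514). Without MG-LC replicate 1 it was 3.82 (adjusted p = 3.24e-04). KC-LCs, at 31.0, 66.0 and 83.3 CPM, overlapped KCs, with a log2 fold change of -0.77 ± 0.72 (adjusted p = 0.441) that became 0.47 (adjusted p = 0.476) without KC replicate 1. AM-LCs, at 1055, 1633 and 1226 CPM, did not overlap AMs, with a small fold change of 0.50 ± 0.17 (adjusted p = 0.0466). That call was lost (adjusted p of 0.0765 to 0.135) without any 1 of the 3 AM libraries or AM-LC replicate 2 or 3. In the model of all 24 libraries its adjusted p was 0.691. Dendritic cell genes summed to 2.86 to 4.78 CPM in AMs and 50.2 to 143 CPM in AM-LCs, where 5 of 6 tested rose, and to 1.52 to 9.95 CPM in MG and MG-LCs together. Their part in the Itgax values was not tested.

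Clec7a (chr6:129461591-129472779, minus strand), the receptor for fungal beta-glucans that signals through Syk and Card9, was lowest in sorted MG, at 8.64, 7.55 and 9.98 CPM. Sorted AMs were highest, at 852, 622 and 603 CPM, and KCs, at 64.4 to 190.4 CPM, overlapped PMs, at 100.1 to 139 CPM. Culture gave 51.2, 297 and 325 CPM in MG-LCs, 89.1, 666 and 529 CPM in KC-LCs, 2990.0, 1919 and 1667 CPM in PM-LCs and 1749, 2915 and 1235 CPM in AM-LCs. The cultured and sorted libraries were separate in MG, PMs and AMs and overlapped in KCs. It rose by 4.72 ± 0.73 (adjusted p = 0.00465) on the log2 scale in MG, 4.17 ± 0.29 (adjusted p = 1.15e-04) in PMs and 1.5 ± 0.30 (adjusted p = 0.00598) in AMs. The AM call was lost in the model of all 24 libraries (1.51, adjusted p = 0.073). In KCs the value was 1.83 ± 0.71 (adjusted p = 0.082), and without KC-LC replicate 1 it passed, at 2.33 (adjusted p = 0.0183). The excess in MG over the other tissues, 2.17 ± 0.71 (adjusted p = 0.0366), was lost in 12 of the 24 fits that left out 1 library and with limma-voom (adjusted p = 0.165).

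Cd9 (chr6:125460266-125494791, minus strand), a tetraspanin of the plasma membrane, was highest in sorted AMs, at 5829, 4561 and 4496 CPM, and lowest in sorted KCs, at 81.4, 88.6 and 24.2 CPM. Sorted MG held 708, 747 and 780.3 CPM and MG-LCs 671, 1005 and 709 CPM, with overlap and a log2 fold change of 0.14 ± 0.27 (adjusted p = 0.685). KC-LCs reached 1200.3, 1547 and 1083 CPM, far above KCs. Culture changed Cd9 by 4.27 ± 0.53 (adjusted p = 0.00161) on the log2 scale in KCs, 0.87 ± 0.20 (adjusted p = 0.0154) in PMs and -0.43 ± 0.23 (adjusted p = 0.169) in AMs. The KC effect exceeded the other tissues by 4.12, and the log2 differences for MG and AMs were -1.49 and -2.19. The PM call was lost, at adjusted p of 0.0579 to 0.0833, without any 1 of the sorted PM libraries. The genes Gm28809 and Gm26728 lie antisense to Cd9, and the library kit does not mark strand, so that their reads cannot be told apart there.

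Cst7 (chr2:150570415-150578944, plus strand), an inhibitor of cysteine cathepsins and among the first genes used to define the programme, was low throughout. It did not exceed 13.1 CPM in any of the 24 libraries. Sorted MG held 5.29, 5.30 and 4.25 CPM and MG-LCs 6.29, 11.4 and 8.12 CPM, a log2 fold change of 0.84 ± 0.32 (adjusted p = 0.0718), which passed without MG-LC replicate 1 at 1.03 (adjusted p = 0.0229). KCs held 4.70, 0 and 1.46 CPM, where 0 reads allow up to 0.0779 CPM, and KC-LCs 10.8, 13.1 and 2.95 CPM, with overlap. Sorted AMs had 6 reads over 3 libraries, and AM-LCs 5.52, 1.15 and 4.16 CPM, a fitted log2 fold change of 5.99 whose size depends on the prior count added to so few reads. PMs held 0.301 to 0.600 CPM and PM-LCs 0 to 0.279 CPM. Among the sorted cells MG exceeded the mean log2 level of the others by 3.65 ± 0.92 (adjusted p = 0.00586). KC replicate 1 nevertheless lay within the range of MG. The size of this value also depends on the prior count, with 6 reads in sorted AMs and 49 in sorted PMs.

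**Figure D3:**
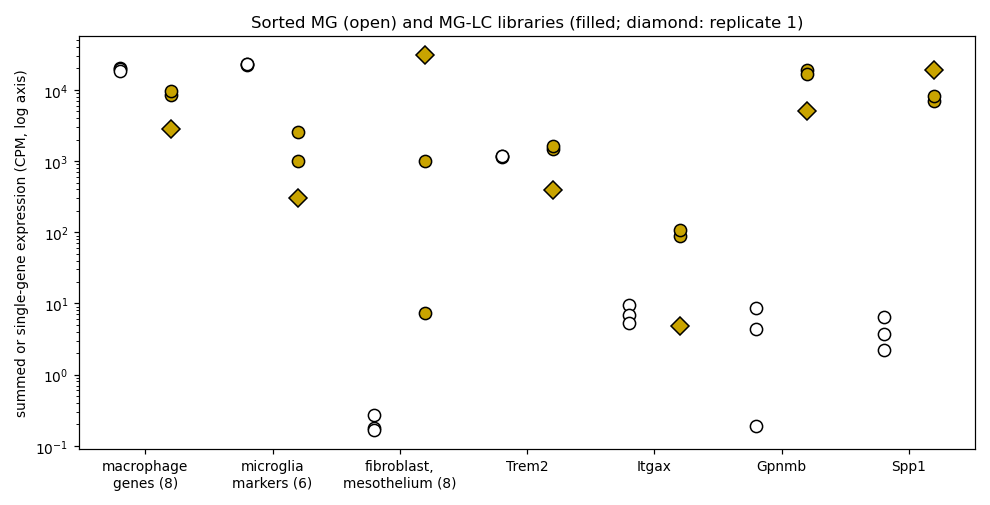
CPM (log axis) in the 3 sorted MG (open circles) and 3 MG-LC libraries (filled) for the sums of 3 marker lists and for 4 members. MG-LC replicate 1, the diamond, had the most fibroblast and mesothelium RNA, the least Trem2 and Itgax and the most Spp1 of the MG-LC libraries.

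Fewer differences between the tissues were called after culture. Set against the mean of the other 3 cultured populations, MG-, KC- and PM-LCs each had 0 of 10 members called by edgeR's test (5, 3 and 5 had an unadjusted p under 0.05). In MG-LCs limma-voom, RLE size factors and a filter of 1 CPM each called 1, Cd9, while in KC- and PM-LCs limma-voom called 0. Few genes of any kind were called, 0.338% higher and 0.223% lower for MG-LCs, 0.0135% and 0.0945% for KC-LCs and 0.405% and 0.122% for PM-LCs. AM-LCs had 3 higher and 1 lower (8.38% and 4.71% of all genes tested). Spp1 was above the other cultures by 2.74 ± 0.39 (adjusted p = 0.00185), Itgax by 3.52 ± 0.57 (adjusted p = 0.00369) and Cd9 by 1.63 ± 0.21 (adjusted p = 0.00119). Apoe was lower, with a log2 difference of -6.64 ± 1.52 (adjusted p = 0.0178), a call lost (0.0668 to 0.092) without any 1 AM-LC library. The ratio of the highest to the lowest group mean shrank between the sorted and the cultured groups for all 10 members, from 29.2 to 2.52 for Trem2, from 184 to 1.99 for Gpnmb and from 79.4 to 9.77 for Clec7a. It stayed wide for Apoe, at 149, and Cst7, at 53.3. The ratio was not computed for all genes, so a smaller ratio after culture is not shown to be particular to the members. Per kilobase of exon, the members at the top in MG-LCs were Spp1 at 6929, Apoe at 5897, Gpnmb at 2084 and Tyrobp at 2079 CPM per kilobase. In sorted MG they were Tyrobp at 977, Cd9 at 365 and Trem2 at 235.

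**Figure D4:**
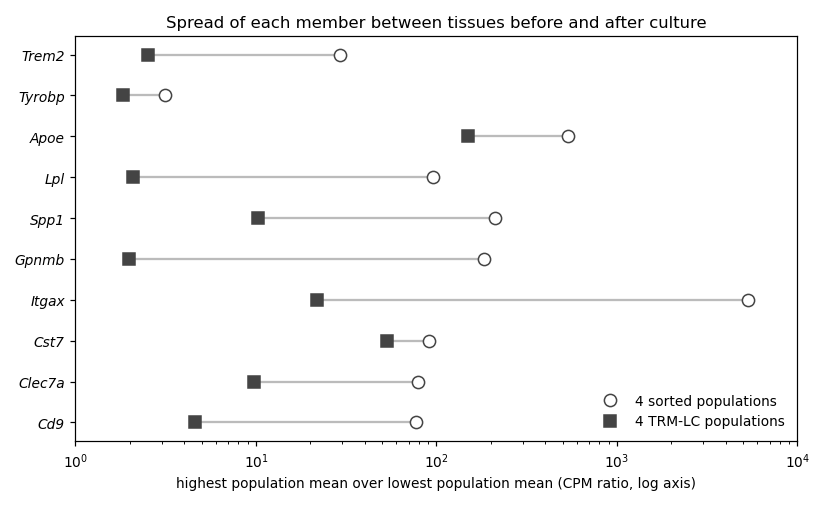
Ratio of the highest to the lowest population mean in CPM (log axis) for each member among the 4 sorted (open circles) and the 4 cultured populations (filled squares), each mean over 3 libraries. The ratio was smaller after culture for all 10 members, and fell from 95.6 to 2.09 for Lpl. It was not computed for all genes.

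Most other genes of the programme that changed in culture also rose. Of 28 further genes listed for disease-associated microglia, 27 were in the table and tested. Which libraries carried each of them past the filter on low counts was not checked. In MG 16 were higher and 0 lower in vitro, in KCs 15 and 1, in PMs 18 and 3, and in AMs 23 and 1. Their median log2 fold changes were 2.33, 1.5, 2.38 and 1.96. Of all genes tested, 25.2% were higher and 21.2% lower in MG, and 14.4% and 19.4% in KCs. The shares were 16.8% and 12.1% in PMs and 25.9% and 22.9% in AMs. Fabp5, a fatty acid carrier, rose by 10.77 ± 0.54 (adjusted p = 5.81e-04) on the log2 scale in MG and 5.33 ± 0.75 (adjusted p = 0.0025) in KCs. Lgals3, the galactose-binding lectin galectin-3, rose by 10.53 ± 0.95 (adjusted p = 0.00109) in MG, and the lysosomal tetraspanin Cd63 by 5.49 ± 0.61 (adjusted p = 0.00109) in KCs. Of the 28, 8 were higher in all 4 tissues, next to 3.87% of the 11777 genes tested in all 4. Axl, a receptor that takes part in clearing dying cells, rose in MG, at 4.13, and fell in KCs, at -2.89, and AMs, at -2.51. The resting genes of microglia went the other way in MG, where 16 of 16 were lower with a median of -5.34, P2ry12 having dropped by 8.93 ± 0.99 (adjusted p = 0.00188). In the other tissues these 16 were mixed, with 4 higher and 4 lower of 13 tested in KCs, 5 and 3 of 14 in PMs and 4 and 5 of 13 in AMs.

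**Figure D5:**
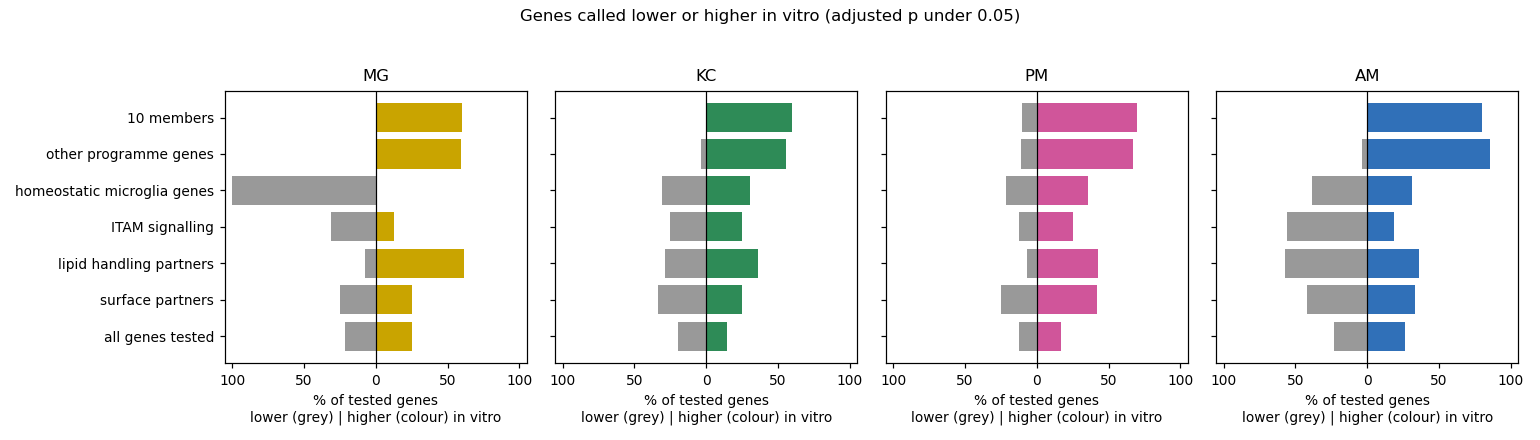
Share of the tested genes of each list called higher (colour, to the right) or lower (grey, to the left) in vitro at an adjusted p of 0.05, by tissue. Members and other programme genes lean to higher in all 4 tissues, and homeostatic microglia genes are all lower in MG.

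Signalling partners of Trem2 and Tyrobp were mixed. Of 16 genes of ITAM signalling, 2 were higher and 5 lower in MG, 4 and 4 in KCs, 4 and 2 in PMs, and 3 and 9 in AMs. Beside these and the next lists, 25.2% of all genes tested were higher and 21.2% lower in MG. The shares were 14.4% and 19.4% in KCs, 16.8% and 12.1% in PMs, and 25.9% and 22.9% in AMs. Lcp2, an adaptor downstream of Syk, fell in all 4 tissues, with log2 values of -2.07, -2.26, -2.23 and -1.21 in MG, KCs, PMs and AMs. Inpp5d, the phosphatase SHIP1 that restrains this pathway, fell by 2.72 ± 0.55 (adjusted p = 0.0104) in MG. Of 14 lipid handling genes around Apoe and Lpl, 8 of 13 tested were higher and 1 lower in MG, 5 and 4 in KCs, 6 and 1 in PMs, and 5 and 8 in AMs. The scavenger receptor Cd36 rose by 9.90, 1.64, 2.4 and 2.44 in the 4 tissues in that order, and the lysosomal lipase Lipa also rose in all 4. Apoc1, the neighbour of Apoe, fell by 11.16 ± 1.07 (adjusted p = 5.98e-04) in KCs. Of 12 partners of Itgax, Cd9 and Spp1, 3 were higher and 3 lower in MG, 3 and 4 in KCs, 5 and 3 in PMs, and 4 and 5 in AMs. The MG counts of these partners lay near the shares of all genes tested. Lcp2, Cd36 in PMs, Lipa and Axl in MG were named after their values were seen. Cd44, a receptor of Spp1, rose by 8.00 in MG and fell in AMs, at -1.76.

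Genes of the cell types around the macrophages moved in culture too, and their part in the members' values was not tested. Of 8 fibroblast and mesothelium genes, 4 of 4 tested were higher in MG-LCs, 7 of 8 in PM-LCs and 5 of 5 in AM-LCs. In KC-LCs 0 of 3 were, with a sum of 0.024 to 29.8 CPM. The 8 genes summed to 0.167 to 0.271 CPM in sorted MG and 0.0746 to 0.658 CPM in sorted AMs, and 3 had no read in PMs. With so few reads, those tested in MG and AMs passed the filter on low counts through cultured libraries. In PM replicate 2, 7 of the 8 had no read, so these 7 also needed cultured libraries to pass. Their direction was thus set beforehand, and these counts only describe it. The 8 macrophage genes summed to 18693 to 20547 CPM in MG and 2822 to 9679 CPM in MG-LCs. In the other tissues the cultured sums were 6976 to 8566 CPM in KC-LCs, 5872 to 10035 CPM in PM-LCs and 3220 to 4021 CPM in AM-LCs. The 6 Kupffer cell markers summed to 284, 215 and 2235 CPM in MG-LCs against 1.49 to 2.71 CPM in MG. The highest of these was replicate 3, which also held the most Apoe. Of the 6, 2 were tested in MG and only Cd5l was called higher. Monocyte genes summed to 210, 17.1 and 193 CPM in MG-LCs against 4.32 to 5.32 CPM in MG. Of these, 4 were tested and only F13a1 was called higher. Neither sum thus describes its list as a whole. The 8 B cell genes and the 7 dendritic cell genes were lower in KC-LCs than in KCs, 8 of 8 and 7 of 7. Of these, 4 B cell and 2 dendritic cell genes had no read in KC-LCs and passed the filter only through sorted libraries. Astrocyte genes were higher in MG-LCs for 2 of 3 tested, and neutrophil genes for 2 of 2. The neutrophil genes summed to at most 0.132 CPM in sorted MG, so those tested also passed the filter through cultured libraries. Without the doubted libraries the members higher in vitro numbered 9 in MG (without MG-LC replicate 1), 6 in KCs (without KC replicate 1), 7 in KCs (without KC-LC replicate 1), 7 in PMs (without PM-LC replicate 2) and 6 in AMs (without AM-LC replicate 3).

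For each member the 2 genes with the most similar profile were found by Pearson's r of log2 CPM over the 24 libraries, among 8384 genes with a mean log2 CPM over 3. These values describe 8 groups that share tissue and culture, and carry no test. Spp1 and Gpnmb were each other's closest gene (r = 0.96). Within the 12 sorted libraries their r was 0.967 and within the 12 cultured libraries -0.0337. Trem2 was closest to Syngr1 (0.95), Lpl to Fam241a (0.959), Apoe to the macrophage receptor Adgre1 (0.885), which encodes F4/80, and Tyrobp to Lamtor1 (0.902). Clec7a was closest to Atp6v1b2 (0.955) and Atp6v1e1 (0.95), both subunits of the proton pump of lysosomes, and Itgax to Pld3 (0.923) and the lysosomal channel Mcoln1 (0.921). Cd9 was closest to Hvcn1 (0.906). Cst7, at its low counts, reached no more than 0.802, with Anapc7.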

How the data were processed

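RNA of 24 macrophage libraries, 3 in each of 8 groups, was read as SMARTer cDNA in Nextera XT libraries with single reads. The values used were raw read counts per Ensembl gene, deposited by the authors in 1 table of 45706 genes. The submitters' processing notes name Trimmomatic 0.36, STAR 2.5.2b and build hg19, while the methods of the study name mouse build mm10, and the identifiers are those of mouse genes. Whether counting used strand was not given in the sources used here. Library totals were 29569486 to 47105111 reads, and 3 reads were taken as the limit that a count of 0 allows (counting error only).

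Counts were tested with edgeR 4.0.16 (R 4.3.3) by the quasi-likelihood test after TMM scaling and filterByExpr with a minimum count of 10, with Benjamini-Hochberg adjustment across every gene that entered the test and a threshold of 0.05. The culture effect was fitted within each tissue (6 libraries). Its difference between tissues was fitted over 24 libraries. Each sorted or cultured population was compared with the mean of the log2 levels of the other 3. Log2 fold changes are in vitro minus ex vivo, with standard errors from the same fit. The test was checked on data with known changes. Alternatives were limma-voom (limma 3.58.1, the study's method), DESeq2 1.42.0, RLE size factors, other filters and call rules, 1 model of all libraries, a replicate block and leaving out each library. Symbols, exon lengths (union of all exons) and overlaps came from GENCODE M21 (GRCm38), and 563 identifiers had no symbol. Replicates are called biological by the submitters, but no label ties libraries of the same number to the same mice. Every pair of replicates differed by more than counting noise.

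The members and all gene lists were chosen with earlier results of these data known. From lists other than the members, at most the 3 called genes with the largest fold change per list, tissue and direction were named, with exceptions stated. The libraries that carried a gene past the filter on low counts were worked out gene by gene for the members only. No gene lists were tested as sets.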

Additional observations from a re-analysis of the deposited data

Results flagged for a closer look

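The culture effect of 22 member and tissue pairs differed from the mean effect of the other 3 tissues, at an adjusted p under 0.05 in the model of 24 libraries (edgeR's quasi-likelihood test). Each value is the log2 culture effect in the tissue minus that mean. In MG the difference was -4.82 for Trem2 and -1.49 for Cd9, and it was 6.54 for Apoe, 5.75 for Lpl, 5.52 for Spp1, 4.10 for Gpnmb and 2.17 for Clec7a. In KCs it was 2.42 for Trem2 and 4.12 for Cd9, and -5.25 for Spp1, -3.79 for Gpnmb and -5.64 for Itgax. In PMs it was 1.63 for Trem2, 2.18 for Spp1, 4.31 for Gpnmb and 10.03 for Itgax. In AMs it was 5.48 for Cst7, and -3.13 for Lpl, -2.45 for Spp1, -4.62 for Gpnmb, -4.01 for Itgax and -2.19 for Cd9. The sizes for Itgax in PMs and Cst7 in AMs depend on the prior count, since the sorted libraries held 19 and 6 reads in all. The tissues share the libraries of these contrasts, so a large effect in 1 tissue lowers the values of the other 3.

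Some of these calls were lost without 1 library or with another test. That of Spp1 in PMs was lost in 17 of 24 fits without 1 library (adjusted p of 0.0534 to 0.156) and that of Clec7a in MG in 12 (0.05 to 0.105). Spp1 in AMs was lost without AM replicate 1 or AM-LC replicate 1 or 2 (0.0522 to 0.0715), Cst7 in AMs without AM replicate 2 or 3 (0.0552 to 0.068), and Gpnmb in KCs without KC replicate 2 (0.0589). With limma-voom the calls of Clec7a in MG (adjusted p = 0.165), Spp1 in PMs (0.0566) and Cst7 in AMs (0.0612) were lost. What set these libraries apart was not tested.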

How the results depend on the processing

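Apart from the fits without 1 library, 124 counts of calls lay within 1.5 times their main value and 7 outside it. Of the single-gene results there, 716 kept their direction and their side of the threshold. A call was gained in 14 and lost in 20, and 8 turned direction. With a log2 fold change over 1.5 also required, and in 1 model of all 24 libraries, 0 members were lower in PM-LCs and 5 were higher in AM-LCs. Among MG-LCs set against the other cultures, limma-voom, RLE size factors and the filter of 1 CPM each called 1 member, Cd9. Directions turned only for values that passed no test: with limma-voom Trem2 in MG was -0.19, Cst7 in sorted KCs -0.14 and in sorted PMs 0.015, and Lpl -0.95 in MG-LCs and 0.27 in AM-LCs. Tyrobp in KC-LCs was -0.019 with RLE size factors. Same-numbered libraries did not deviate together (correlations of -0.104 to 0.0558), so the numbers were not read as pairs. With the replicate block 5 members were higher in MG-LCs, Trem2 in MG was -0.17 and Lpl in MG-LCs -0.27, and the calls of Itgax in MG, Tyrobp in KCs, Cd9 in PMs, Lpl and Itgax in AMs and the Spp1 difference in PMs were lost. The block gained Clec7a in KCs and the differences of Cst7 in PMs and Clec7a in AMs.

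With 1 library left out, members higher in vitro numbered 3 to 9 in MG, 5 to 7 in KCs, 6 to 7 in PMs and 6 to 8 in AMs, members lower 0 to 1 in PMs and AMs, and members higher in all 4 tissues 2 to 4. Differences of the culture effect numbered 6 to 7 in MG, 4 to 7 in KCs, 3 to 7 in PMs and 5 to 7 in AMs. Differences among cultured cells numbered 0 to 1 in MG-, KC- and PM-LCs and 3 to 6 in AM-LCs. Culture effects that changed sign ran from -0.26 to 0.49 for Trem2 in MG, -0.075 to 0.25 for Cd9 in MG and -1.24 to 0.47 for Itgax in KCs. Differences that did so ran from -1.49 to 0.17 for Itgax in MG, -0.036 to 0.40 for Tyrobp in KCs and -0.24 to 1.84 for Cst7 in KCs. Among sorted cells Cd9 in MG ran from -0.017 to 0.26, Clec7a in KCs from -0.14 to 0.66 and Tyrobp in AMs from -0.0079 to 0.20. Among cultured cells, in MG-LCs Trem2 ran from -0.59 to 0.15, Lpl from -0.53 to 0.56 and Spp1 from -0.20 to 0.71, Tyrobp in KC-LCs from -0.24 to 0.20 and Lpl in AM-LCs from -0.26 to 0.10. The cause of these changes was not tested. Low counts limit Cst7 throughout, Itgax in sorted PMs and Gpnmb in sorted MG, where replicate 3 held 8 reads.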

Other observations

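Regulators of lysosomal genes were also listed, since Gpnmb is a known target of the MiT/TFE transcription factors. Of 8 genes for these factors and the proteins that control their entry into the nucleus, 3 were higher and 1 lower in vitro in MG, 3 and 2 in KCs, 4 and 0 in PMs, and 3 and 4 in AMs. Of all genes tested, 25.2% were higher and 21.2% lower in MG, and 14.4% and 19.4% in KCs. The shares were 16.8% and 12.1% in PMs and 25.9% and 22.9% in AMs. Rragd, a GTPase that brings the factors to the lysosome, rose in every tissue, with log2 fold changes of 5.17, 9.63, 5.57 and 7.86 in MG, KCs, PMs and AMs. Fnip2, a partner of folliculin, also rose in all 4. Among the factors themselves Tfec rose in MG by 4.49 ± 0.49 (adjusted p = 0.0018) and fell in KCs by 2.12 ± 0.25 (adjusted p = 0.0013).

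Fcrls, a gene of resting microglia, fell in MG-LCs to 548 from 3297 CPM (means of 3) and rose in KC-LCs to 239 from 0.363 CPM. Its log2 fold change was -2.55 ± 0.64 (adjusted p = 0.02) in MG and a fitted 9.30 in KCs. Which libraries carried Fcrls past the filter on low counts was not checked, so no p is given for KCs. The size in KCs depends on the prior count, since sorted KCs held so little of it. Fcrls was also called higher in AM-LCs than in AMs. The MG values were added after they were seen.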
